A study of Mus musculus with 26 samples.

Results

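Toll-like receptors sense microbial products and debris of damaged cells, and NF-kB is the family of transcription factors that their signal releases into the nucleus. The values below describe 10 genes of that pathway in mouse liver, out of 55642 gene IDs in the table of estimated counts. The genes were chosen by name, with earlier results of these data known. They were the cytokines Tnf and Il1b, the receptors Tlr2 and Tlr4, the co-receptor Cd14 and the adaptor Myd88. The subunit genes Nfkb2 and Relb and the inhibitors Nfkbia and Tnfaip3 completed them. All 10 were found by their Ensembl identifiers, and all 10 were among the 17104 genes that passed the filter on low counts.

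The samples were 26 whole-liver RNA libraries in 4 groups. Homozygous Mtarc1 knockout mice (8 libraries), heterozygous Mtarc1 knockout mice (7 libraries) and wildtype mice (6 libraries) had received CDAHFD for 2 weeks before RNA was taken. CDAHFD is a high-fat diet that lacks choline and holds defined amino acids in place of protein, and is used to bring on fatty liver disease. A further 5 libraries came from wildtype mice on control chow. No knockout mice on chow were analysed here, so a genotype effect could be read only on CDAHFD. No source used here gives the strain, sex, age or Mtarc1 allele design. Samples carry numbers only, and nothing says that they came from different animals, which means that p-values reflect the scatter among samples and that this scatter may be technical.

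In resting cells, NF-kB dimers are held in the cytoplasm by IkB proteins, of which Nfkbia encodes IkB-alpha. A ligand on a Toll-like receptor or on the IL-1 receptor recruits Myd88, a kinase complex then marks IkB for destruction, and the freed dimers switch on cytokines as well as their own inhibitors. Nfkb2 encodes p100, which is cut to p52 and pairs with RelB in the noncanonical branch of the pathway. In liver, resident Kupffer cells and incoming monocyte-derived macrophages are well-known sources of Tnf and Il1b, and hepatocytes also carry NF-kB.

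Library totals lay between 19.73 and 29.91 M estimated counts (M, mega). By mean, the knocked-out gene followed its labels, in CPM, which are counts per M on scaled library sizes. Mtarc1 averaged 48.7 ± 10.4 CPM in homozygous (SD, n = 8) and 161 ± 33.7 CPM in heterozygous knockout livers (n = 7). It averaged 235 ± 40.7 CPM in wildtype CDAHFD livers (n = 6) and 305 ± 40.2 CPM in wildtype chow livers (n = 5). Every homozygous library lay below every other library for this gene. Heterozygous and wildtype CDAHFD livers overlapped for it, though 6 of 7 heterozygous livers lay below every wildtype CDAHFD liver. Their log2 difference of -0.55 ± 0.15 was not called after adjustment over all genes (edgeR unadjusted p = 0.000904, adjusted p = 0.569). Library names fell into 2 number series that are not labelled as batches. The 9-library series held 2 homozygous, 3 heterozygous, 3 wildtype CDAHFD and 1 chow library, and the 17-library series held 6, 4, 3 and 4 in the same order of groups. The hepatocyte markers fitted the labelled tissue, with a summed level of 57270 to 117400 CPM over all libraries.

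In wildtype livers, CDAHFD was set against chow. Of the 10 genes, 9 rose under CDAHFD by edgeR's quasi-likelihood test (Benjamini-Hochberg adjusted p under 0.05), where 14.8% of all genes tested were called higher. The largest fitted rises were those of Tnf, Tlr2 and Cd14 (log2 fold changes of 2.23, 2.21 and 1.98), and the adaptor Myd88 was the member that was not called. The members' median log2 fold change was 1.39, beside -0.01 over all genes tested. For 6 members (Tlr2, Tlr4, Cd14, Nfkb2, Relb and Tnfaip3) the 6 CDAHFD livers all lay above the 5 chow livers, against 7.95% of all genes. Since these are whole-liver libraries, a change in the number of cells of a type and a change in RNA per cell cannot be told apart.

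**Figure D1:**
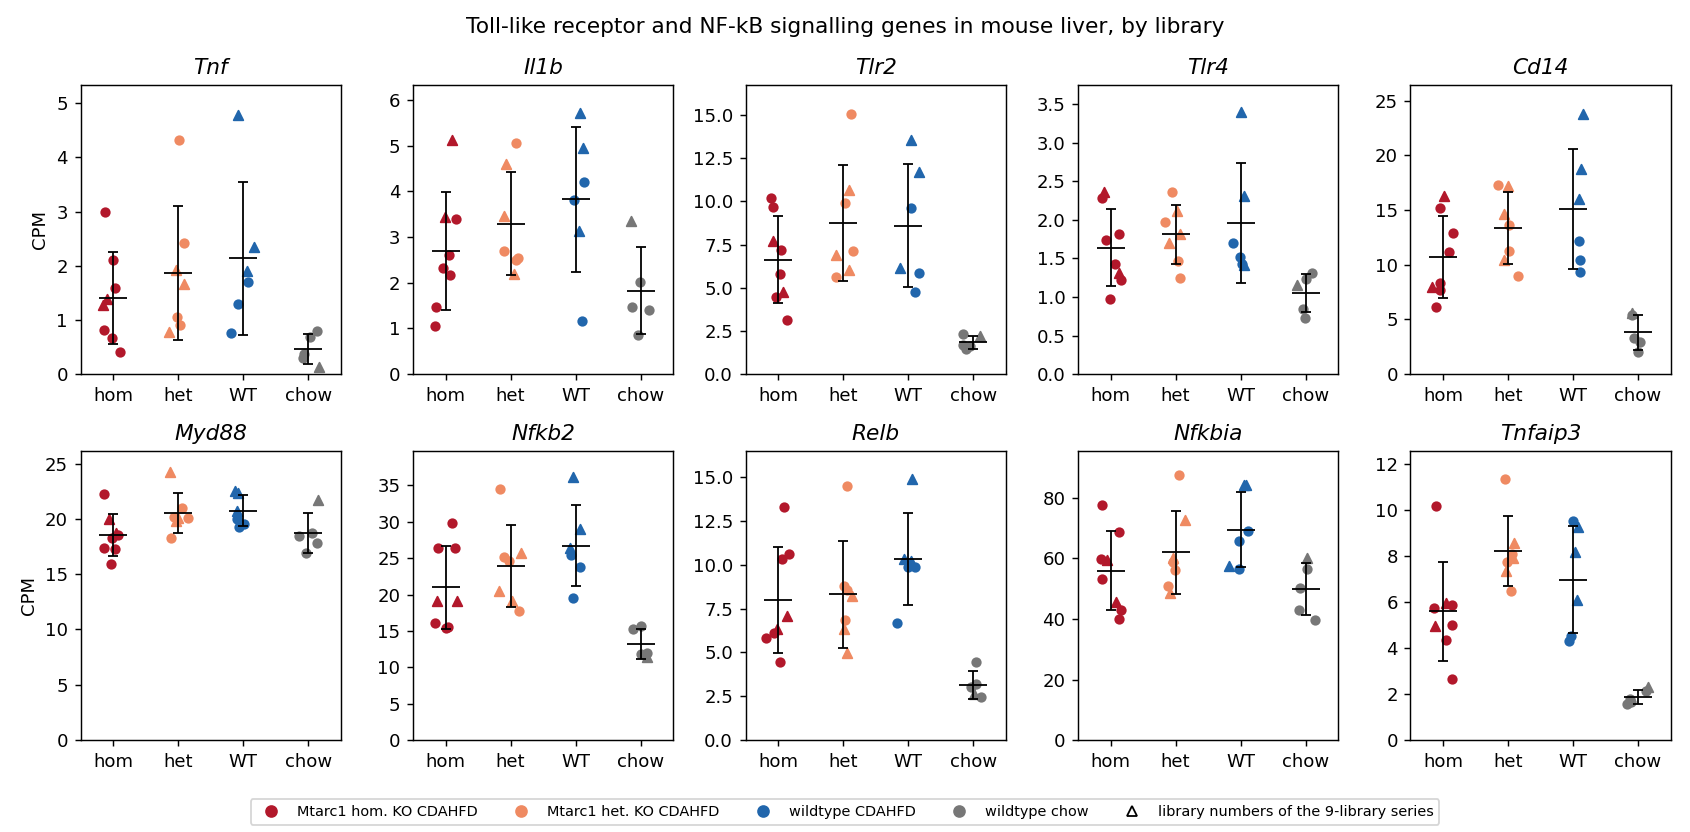
Each of the 26 libraries is a point, with the level in CPM on the y axis and the groups on the x axis (hom, het and WT on CDAHFD, then wildtype chow). Horizontal bars are group means, error bars are SD, and triangles mark the 9-library series. Chow livers sit lowest for 9 of the 10 genes by mean, and the 3 CDAHFD genotypes overlap for every gene.

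Among the receptors, Tlr2, which binds bacterial lipoproteins, lay between 4.74 and 13.5 CPM in wildtype CDAHFD livers, with a median of 7.89 CPM, against 2.21, 1.66, 1.60, 2.31 and 1.48 CPM in chow livers. The lowest CDAHFD liver thus held more than 2 times the Tlr2 level of the highest chow liver. Its log2 fold change was 2.21 ± 0.33 (SE, edgeR adjusted p = 2.33e-05). Tlr4, the receptor for endotoxin, lay between 1.41 and 3.40 CPM under CDAHFD (median 1.62 CPM), against 1.15, 0.731, 1.23, 1.31 and 0.845 CPM on chow. The groups did not overlap, but the gap between the lowest CDAHFD and the highest chow liver was small, and the fitted change was 0.90 ± 0.26 (edgeR adjusted p = 0.0113). Without both wildtype CDAHFD samples 2 and 3, the highest for Tlr4, it was 0.53 and no longer called (edgeR adjusted p = 0.148); those samples were left out after their values were seen.

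Cd14, a surface protein that hands endotoxin on to Tlr4, had a fitted change closer to that of Tlr2 than to that of Tlr4. It lay between 9.37 and 23.8 CPM in wildtype CDAHFD livers (median 14.1 CPM), against 5.57, 2.00, 3.26, 5.38 and 2.90 CPM in chow livers. No chow liver reached the CDAHFD range, and the log2 fold change was 1.98 ± 0.30 (edgeR adjusted p = 2.55e-05). Ly96, the secreted partner that Tlr4 needs to bind endotoxin, averaged 4.98 ± 0.915 CPM under CDAHFD and 4.29 ± 0.511 CPM on chow, a log2 difference of 0.21 ± 0.15 that was not called (edgeR adjusted p = 0.321).

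Myd88, the adaptor shared by most Toll-like receptors and the IL-1 receptor, was not called. It lay between 19.3 and 22.5 CPM in wildtype CDAHFD livers (median 20.4 CPM), against 21.7, 18.4, 16.9, 18.7 and 17.9 CPM in chow livers, and 2 of 6 CDAHFD livers exceeded every chow liver. The log2 difference was 0.15 ± 0.08 (edgeR adjusted p = 0.207), and it was called only with raw library totals as the scale (0.38, edgeR adjusted p = 0.00225), a scaling that moved the median of all genes to 0.22. The annotated span of Myd88 overlaps that of Acaa1a on the other strand, a gene at 255 ± 22.3 CPM in wildtype CDAHFD livers and 210 ± 47.3 CPM in chow livers. No source used here says whether reads were counted by strand, so reads of the overlapping part may belong to either gene.

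Both subunit genes of the noncanonical branch rose. Nfkb2 lay between 19.6 and 36.2 CPM in wildtype CDAHFD livers (median 25.9 CPM), against 11.5, 11.8, 11.9, 15.7 and 15.2 CPM in chow livers. Its log2 fold change was 1.02 ± 0.19 (edgeR adjusted p = 0.000259). Relb lay between 6.70 and 14.9 CPM under CDAHFD (median 10.1 CPM), against 2.62, 2.49, 3.21, 4.47 and 3.01 CPM on chow, with a log2 fold change of 1.71 ± 0.28 (edgeR adjusted p = 5.43e-05). In both genes every CDAHFD liver lay above every chow liver. The span of Nfkb2 overlaps that of Psd on the other strand, at 4.44 ± 1.19 CPM under CDAHFD and 3.58 ± 0.539 CPM on chow.

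Of the inhibitors, Tnfaip3, which encodes A20, a ubiquitin-editing enzyme that shuts the signal off upstream of IkB, lay between 4.29 and 9.51 CPM in wildtype CDAHFD livers (median 7.12 CPM), against 2.30, 1.66, 1.76, 1.56 and 2.11 CPM in chow livers. The ranges were far apart, and its log2 fold change of 1.89 ± 0.26 had the lowest adjusted p of the 10 genes (8.46e-06, edgeR). Nfkbia lay between 56.5 and 84.3 CPM under CDAHFD (median 67.4 CPM), against 60.0, 50.3, 39.6, 43.1 and 56.5 CPM on chow, and 4 of 6 CDAHFD livers exceeded every chow liver. Its log2 fold change of 0.48 ± 0.17 was close to the threshold (edgeR adjusted p = 0.0366). The call was lost when chow sample 2, 3 or 4 or wildtype CDAHFD sample 1, 2 or 4 was left out, with values of 0.41 to 0.48 and edgeR adjusted p of 0.0524 to 0.0936. It was also lost with the number series as a term (0.46, edgeR adjusted p = 0.0568).

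Of the cytokines, Tnf lay between 0.762 and 4.79 CPM in wildtype CDAHFD livers (median 1.80 CPM), which is 19 to 145 estimated counts, against 0.138, 0.292, 0.374, 0.804 and 0.687 CPM in chow livers, which is 3 to 16 counts. The lowest CDAHFD liver fell inside the chow range and the other 5 lay above it. The log2 fold change was 2.23 ± 0.56 (edgeR adjusted p = 0.00407). Il1b, whose product is made as an inactive precursor, lay between 1.17 and 5.71 CPM under CDAHFD (median 4.01 CPM), against 3.36, 1.41, 0.855, 2.01 and 1.48 CPM on chow. The ranges overlapped, and the log2 fold change was 1.07 ± 0.38 (edgeR adjusted p = 0.0380). That call was lost when chow sample 2, 3, 4 or 5 or wildtype CDAHFD sample 2, 3, 4 or 6 was left out, with values of 0.89 to 1.10 and edgeR adjusted p of 0.0532 to 0.0963. It was also lost with the number series as a term (0.91, edgeR adjusted p = 0.0504), by limma voom (1.06, adjusted p = 0.0673), with no filter (1.09, edgeR adjusted p = 0.0740) and with only these 2 groups fitted (1.05, edgeR adjusted p = 0.0568).

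The direction was the same within both number series, where the ratio of the wildtype CDAHFD mean to the chow mean was above 1 for all 10 genes. It ran from 1.01 (Myd88) to 21.9 (Tnf) in the 9-library series, whose chow side is 1 library, and from 1.09 (Myd88) to 3.82 (Tlr2) in the 17-library series. Tnf stood at 3.02 CPM under CDAHFD and 0.138 CPM on chow in the 9-library series, and at 1.25 CPM under CDAHFD and 0.539 CPM on chow in the 17-library series. Fitted within the 17-library series alone, Tnf was at 1.21 on the log2 scale and was not called (edgeR adjusted p = 0.251), while Tlr2, Cd14, Relb and Tnfaip3 were called. In the 9-library series alone the called genes were Tnf, Nfkb2, Relb and Tnfaip3.

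The promoters of these genes are shown because NF-kB acts by binding the kappa B consensus, a degenerate motif of 10 bases, and because Nfkbia, Tnfaip3, Nfkb2 and Tlr2 carry it near the start. The sequences are RefSeq promoters of GRCm38.p6, each taken from 250 bases before to 50 bases after a gene's start, and they matched 7 of the 10 genes. Each stretch is given 5′ to 3′ on the gene's strand, capitals mark matches to the consensus, and positions count from the start. The Nfkbia stretch is chr12:55492648-55492747, minus strand, with its match at -29 to -20. That of Tnfaip3 is chr10:19015411-19015510, minus strand, with a match at -12 to -3. For Nfkb2 it is chr19:46304637-46304736, plus strand, where matches at -39 to -30 and -38 to -29 overlap and another lies at -11 to -2. The Tlr2 stretch is chr3:83841719-83841818, minus strand, farther out, with overlapping matches at -173 to -164 and -172 to -163. Outside the stretches shown, Tlr2 has another match at -8 to 2 and Tnfaip3 another at -125 to -116. The stretches come from promoter 1 of each gene, and some genes have more than 1 listed. Counted from its own start, Nfkb2 promoter 2 has matches at -236 to -227 and 11 to 20. Promoter 3 of Nfkb2 has a match at -225 to -216, and promoter 2 of Tnfaip3 has 0. Whether these Nfkb2 matches include sites of the stretch shown was not checked.
Nfkbia: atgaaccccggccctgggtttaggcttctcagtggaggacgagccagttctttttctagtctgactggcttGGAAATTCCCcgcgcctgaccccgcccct
Tnfaip3: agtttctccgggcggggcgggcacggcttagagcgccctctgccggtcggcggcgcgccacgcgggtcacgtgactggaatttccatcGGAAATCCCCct
Nfkb2: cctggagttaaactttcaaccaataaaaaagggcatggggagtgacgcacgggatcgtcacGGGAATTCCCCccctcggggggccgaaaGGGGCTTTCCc
Tlr2: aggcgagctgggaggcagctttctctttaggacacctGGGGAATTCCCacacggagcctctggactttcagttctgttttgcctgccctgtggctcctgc

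On both strands, 6 of the 10 promoters listed for the 7 matched genes held the consensus, against 4.51% of all 32851 promoters of the table. These 6 belong to the 4 genes shown, and Nfkb2 enters them through its promoters 1, 2 and 3. By gene, 4 of the 7 matched members held the consensus, against 1388 of the 27025 genes of the table. The members were chosen by name as genes of this pathway, so these shares are a description. The other genes of the pathway lists held it in 19 of 96 promoters, or 19.8%. The windows of Tnf, Il1b and Myd88 had no match, which says only that these letters are not in those windows. Genes with and without a match had both small and large log2 fold changes: Nfkbia (0.48) and Tlr2 (2.21) both carried one, and Tnf (2.23) and Myd88 (0.15) did not.

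The log2 ratio of Tlr2 to Tlr4 averaged 2.10 ± 0.41 in wildtype CDAHFD livers (1.63 to 2.76) and 0.83 ± 0.29 in chow livers (0.38 to 1.18). For Relb over Nfkb2 it averaged -1.39 ± 0.11 under CDAHFD and -2.08 ± 0.23 on chow, and for Tnfaip3 over Nfkbia -3.37 ± 0.52 under CDAHFD and -4.73 ± 0.16 on chow. In these 3 pairs no chow liver overlapped a CDAHFD liver. Tnf over Il1b averaged -0.92 ± 0.95 under CDAHFD and -2.10 ± 1.48 on chow, with overlap. A two-sided exact permutation test of the difference gave p = 0.00217, the smallest this design can give, for each of the first 3 pairs (adjusted over 8 such tests, p = 0.00577), and an exact p of 0.154 for Tnf over Il1b (adjusted p = 0.307). The differences of those 3 pairs were 1.21, 0.75 and 1.44 in the 9-library series, and 1.26, 0.68 and 1.26 in the 17-library series. The pairs were chosen after the values were seen, so these p-values are no independent support.

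**Figure D2:**
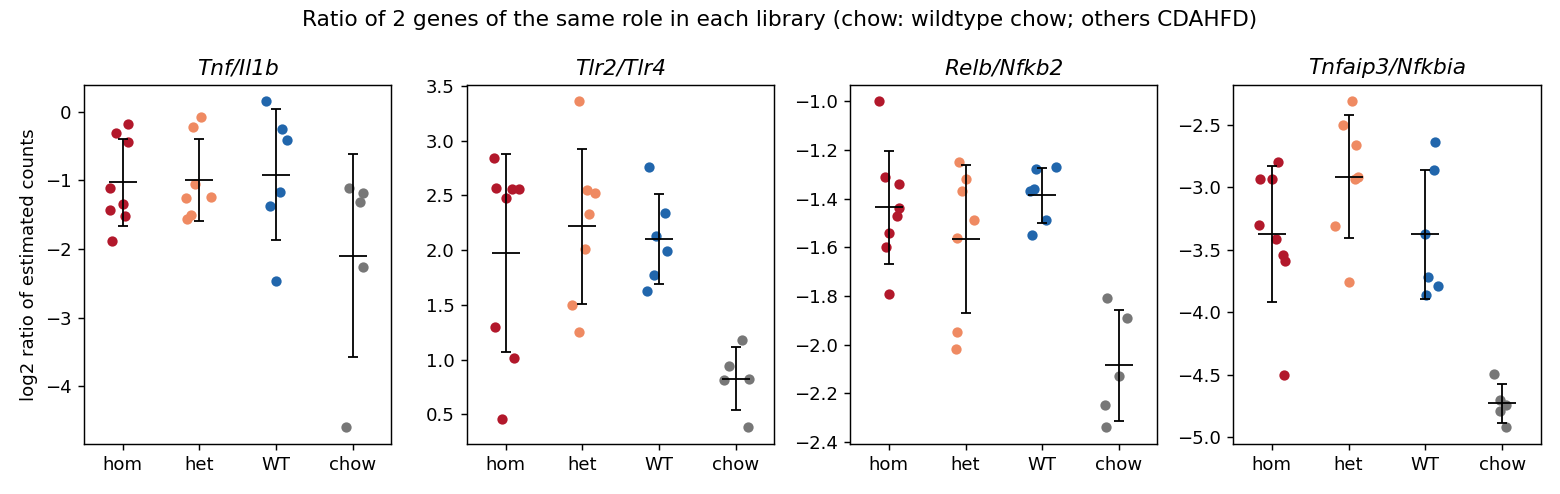
Each point is the log2 ratio of the estimated counts of 2 genes of the same role in a library, by group (hom, het and WT on CDAHFD, then wildtype chow), with means and SD as bars. The chow livers lie apart from the wildtype CDAHFD livers for Tlr2/Tlr4, Relb/Nfkb2 and Tnfaip3/Nfkbia, while hom and wildtype CDAHFD livers overlap in every pair.

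Macrophage markers moved with the same contrast. The summed level of 4 pan-macrophage markers (Adgre1, Csf1r, Cd68 and Lyz2) ranged from 162 to 414 CPM in wildtype CDAHFD livers and from 84.4 to 151 CPM in chow livers, and all 4 were called higher. Of the Kupffer cell markers 4 of 7 were called higher, and their sum ranged from 341 to 512 CPM under CDAHFD and from 170 to 334 CPM on chow. Of the monocyte-derived macrophage markers 7 of 8 were called higher, with sums of 80.2 to 303 CPM under CDAHFD and 37.3 to 47.9 CPM on chow. For the neutrophil markers, 3 of the 4 tested were called higher, and the 7 summed to 6.70 to 24.3 CPM under CDAHFD and 4.39 to 6.60 CPM on chow, with Ly6g and Mmp8 at 0 in some libraries of each group. Of the hepatocyte markers 3 of 6 were called lower and 0 higher. Their sum averaged 75610 ± 12940 CPM under CDAHFD and 106300 ± 9734 CPM on chow. In the other lists, 1 of 7 T and NK cell and 1 of 6 stellate cell markers were called higher. The count was 0 of 4 for B cell, 0 of 6 for sinusoidal endothelial and 0 of 4 for cholangiocyte markers, and none of these lists had a marker called lower. Over all genes tested, 14.8% were called higher and 12.2% lower. No marker was at 0 in all libraries, and the part of any of these cell types in the members' rise was not tested.

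Set against the macrophage markers, the members separated. Per 100 CPM of the 4 pan-macrophage markers, Tlr2 stood at 3.45 ± 0.532 CPM in wildtype CDAHFD livers and 1.78 ± 0.181 CPM in chow livers. Cd14 stood at 6.27 ± 1.53 CPM under CDAHFD and 3.55 ± 0.902 CPM on chow, and Tnfaip3 at 2.88 ± 0.536 CPM under CDAHFD and 1.88 ± 0.533 CPM on chow. Tnf and Relb were also above the chow mean on this scale, by ratios of 1.97 and 1.47. Tlr4, Il1b and Nfkb2 had ratios of 0.803, 0.921 and 0.897. Nfkbia stood at 31.1 ± 9.74 CPM under CDAHFD and 50.0 ± 15.1 CPM on chow, and Myd88 at 9.21 ± 2.66 CPM under CDAHFD and 18.5 ± 3.75 CPM on chow. These ratios to a marker sum are a description and were not tested.

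Among 95 other genes of the pathway, listed by role, 91 were tested and Lta, Il1r2, Il6 and Il12b were too low. Under CDAHFD 48 of the 91 rose (52.7%), where 14.8% of all genes were called higher. Another 4 fell, where 12.2% of all genes were called lower, and the median log2 fold change of the 91 was 0.38. The lists were chosen with earlier results of these data known, so this share and the counts by list are a description. Of 15 other Toll-like receptors and partners, 10 rose and none fell, including Tlr12 (1.53), Tlr13 (2.09) and Tlr7 (1.45), which sense nucleic acids or parasite proteins inside the cell in mice, and Cd180 (1.70). The median of the list was 1.31.

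For the steps after the receptors, the counts were even. Of 17 adaptors, kinases and ubiquitin ligases 4 rose and 4 fell, and their median was -0.06. Chuk, which encodes the kinase IKK-alpha, averaged 95.6 ± 7.62 CPM in wildtype CDAHFD livers and 129 ± 7.64 CPM in chow livers, a log2 fold change of -0.43 ± 0.08 (edgeR adjusted p = 0.000108). Tab2, a bridge between ubiquitin chains and the kinase Tak1, was at -0.47 ± 0.11, and Tirap, which links Tlr2 and Tlr4 to Myd88, at -0.45 ± 0.11. All 3 of these calls were lost with raw library totals as the scale, with values of -0.20, -0.23 and -0.21. Ticam1 (0.33), which encodes the adaptor TRIF, and Ikbke (0.41), an IKK-related kinase, rose.

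Other stages of the pathway were mixed. Of 11 genes for TNF and IL-1 receptors and IL-1 processing 6 rose, including the TNF receptors Tnfrsf1b (0.86) and Tnfrsf1a (0.53) and the inflammasome sensor Nlrp3 (1.20). Of 10 noncanonical inputs tested 6 rose, including Tnfrsf11a (1.58), the receptor RANK, Tnfrsf12a (1.57), the receptor for TWEAK, and Cd40 (1.13). Of 8 other NF-kB subunits and IkB proteins 4 rose: Nfkbie (0.81), Nfkbid (1.25), Nfkbib (0.30) and Nfkb1, at 0.24 with an edgeR adjusted p of 0.0496. Rela, the main activating subunit, averaged 55.0 ± 2.91 CPM under CDAHFD and 50.4 ± 2.76 CPM on chow, a log2 difference of 0.13 that was not called.

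The last lists held other inhibitors and targets. Of 15 other inhibitors tested 7 rose, including Il1rn, the natural antagonist of the IL-1 receptor, at 17.2 ± 7.06 CPM in wildtype CDAHFD livers and 3.42 ± 1.37 CPM in chow livers (log2 fold change 2.34 ± 0.38, edgeR adjusted p = 6.03e-05). Tnip1 (0.70), which works with A20, and Tnfaip8l2 (1.25) rose as well. Of 15 other NF-kB target genes tested 11 rose, with a list median of 1.61. Vcam1, an adhesion molecule for leukocytes, averaged 36.8 ± 7.89 CPM under CDAHFD and 8.70 ± 1.84 CPM on chow (2.08 ± 0.18, edgeR adjusted p = 1.78e-08), and Cd83 (1.87) and Icam1 (1.15) rose with it.

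**Figure D3:**
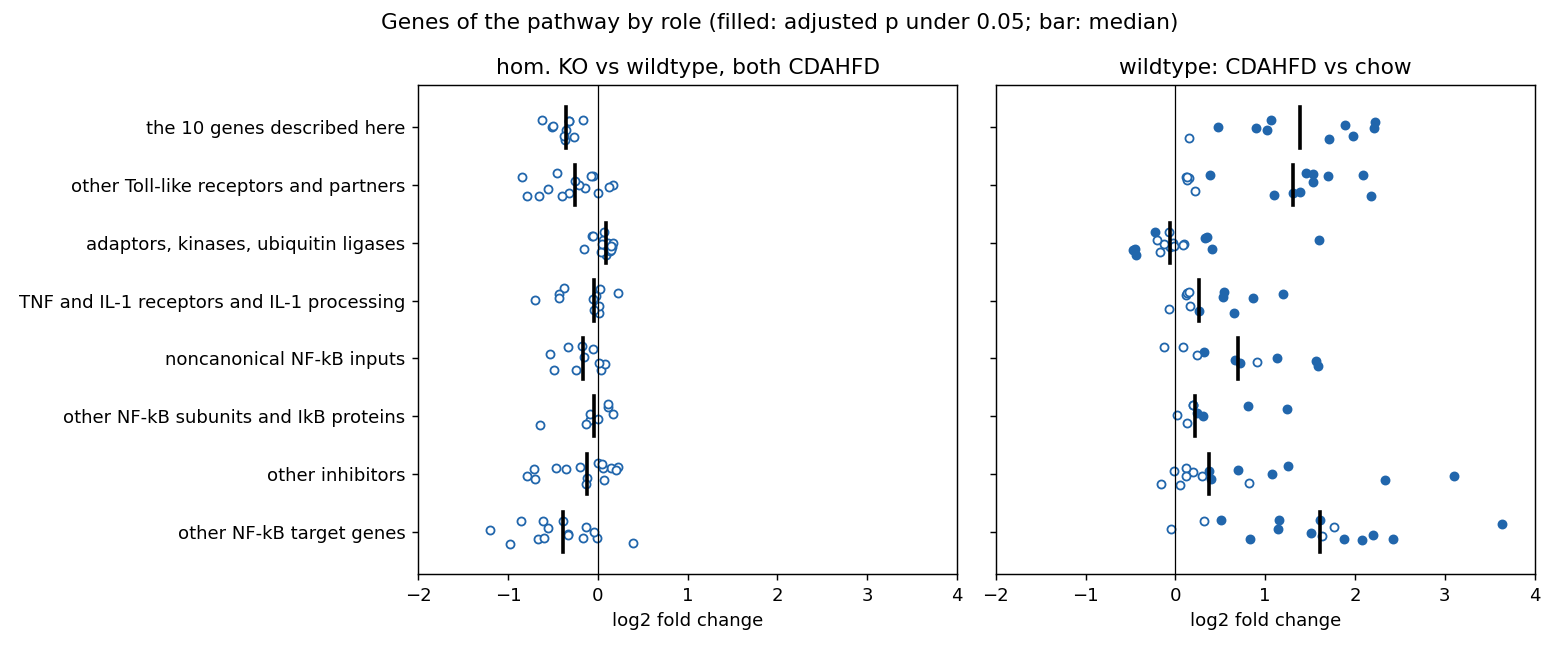
Points are genes, placed by fitted log2 fold change on the x axis and grouped by role on the y axis, with the list median as a black bar. Homozygous knockout against wildtype on CDAHFD is on the left, and wildtype CDAHFD against chow on the right. Filled points have an edgeR adjusted p under 0.05: 9 of the 10 members and 52 of the 91 other genes on the right, and none on the left.

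On CDAHFD, the fitted values of all 10 members were lower in homozygous knockout than in wildtype livers, and none passed the test. The log2 differences from wildtype CDAHFD livers ran from -0.62 (Tnf) to -0.16 (Myd88), with a median of -0.36, beside 0.01 over all genes. Over all genes tested, 48.4% had a value below 0 and 0.00585%, which is Mtarc1 alone, was called. The edgeR adjusted p of the members ran from 0.459 to 0.753. At an unadjusted p under 0.05 there were 3 members (Myd88, Nfkb2 and Nfkbia), against 9.97% of all genes in either direction, and DESeq2 and limma voom also called none of the 10. A p above the threshold does not show that the genotypes had the same level.

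The receptors overlapped between these groups. Tlr2 lay between 3.15 and 10.2 CPM in homozygous knockout livers (median 6.49 CPM), against 4.74 to 13.5 CPM (median 7.89 CPM) in wildtype CDAHFD livers, and 2 of 8 homozygous livers lay below the wildtype range. Its log2 difference was -0.38 ± 0.26. Tlr4 lay between 0.974 and 2.36 CPM (median 1.58 CPM), against 1.41 to 3.40 CPM (median 1.62 CPM), a difference of -0.27 ± 0.22. Cd14 lay between 6.16 and 16.3 CPM in homozygous livers (median 9.76 CPM), against 9.37 to 23.8 CPM (median 14.1 CPM) in wildtype livers. For Cd14, 4 of 8 homozygous livers lay below all 6 wildtype livers, and the difference was -0.50 ± 0.24 (edgeR unadjusted p = 0.0504, adjusted p = 0.502).

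Myd88 had the narrowest spread and the lowest p of the 10. It lay between 15.9 and 22.2 CPM in homozygous knockout livers (median 18.4 CPM), against 19.3 to 22.5 CPM (median 20.4 CPM) in wildtype CDAHFD livers, and 6 of 8 homozygous livers lay below the wildtype range. The log2 difference was -0.16 ± 0.08 (edgeR adjusted p = 0.459). Acaa1a, whose span it overlaps, averaged 223 ± 40.0 CPM in homozygous livers and 255 ± 22.3 CPM in wildtype livers, a difference of -0.19 that was not called.

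Of the subunit genes and inhibitors, Nfkb2 lay between 15.4 and 29.9 CPM in homozygous knockout livers (median 19.2 CPM), against 19.6 to 36.2 CPM (median 25.9 CPM) in wildtype CDAHFD livers, and 5 of 8 lay below the wildtype range. Its difference was -0.35 ± 0.16 and that of Relb -0.37 ± 0.23. Nfkbia lay between 40.0 and 77.7 CPM in homozygous livers (median 56.4 CPM), against 56.5 to 84.3 CPM (median 67.4 CPM) in wildtype livers, a difference of -0.31 ± 0.15. Tnfaip3 lay between 2.64 and 10.2 CPM (median 5.38 CPM), against 4.29 to 9.51 CPM (median 7.12 CPM), a difference of -0.32 ± 0.21. The highest homozygous liver for Tnfaip3, sample 8, stood above every wildtype liver.

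Of the cytokines, Tnf lay between 0.410 and 2.99 CPM in homozygous knockout livers (median 1.33 CPM), against 0.762 to 4.79 CPM (median 1.80 CPM) in wildtype CDAHFD livers. Its difference was -0.62 ± 0.43, and -0.20 without wildtype CDAHFD sample 2, the highest library for Tnf. Il1b lay between 1.05 and 5.12 CPM in homozygous livers (median 2.46 CPM), against 1.17 to 5.71 CPM (median 4.01 CPM) in wildtype livers, a difference of -0.51 ± 0.32.

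The ratios of the homozygous to the wildtype CDAHFD mean stood at other levels in the other number series, a difference that was not tested. In the 9-library series all 10 ratios were below 1, from 0.440 (Tnf) to 0.931 (Il1b), with a median of 0.662. In the 17-library series 7 were below 1 and 3 above, from 0.707 (Il1b) to 1.15 (Tnf), with a median of 0.950. Tnf averaged 1.33 CPM in homozygous and 3.02 CPM in wildtype CDAHFD livers in the 9-library series, and 1.43 CPM in homozygous and 1.25 CPM in wildtype CDAHFD livers in the 17-library series. Nfkb2 averaged 19.2 CPM in homozygous and 30.5 CPM in wildtype livers in the 9-library series, and 21.6 CPM in homozygous and 22.9 CPM in wildtype livers in the 17-library series. The fold between the series was larger for the wildtype CDAHFD mean than for the homozygous mean in 9 of 10 members, a count that was not tested. The exception was Il1b, which averaged 4.28 CPM in homozygous and 4.60 CPM in wildtype CDAHFD livers in the 9-library series, and 2.17 CPM in homozygous and 3.06 CPM in wildtype CDAHFD livers in the 17-library series.

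Macrophage marker sums had lower means in homozygous livers as well. The 4 pan-macrophage markers summed to 139 to 283 CPM in homozygous knockout livers and 162 to 414 CPM in wildtype CDAHFD livers, with all 4 below 0 and none called. The monocyte-derived macrophage markers summed to 50.2 to 131 CPM in homozygous livers and 80.2 to 303 CPM in wildtype livers, with all 8 below 0 and none called. Other lists went both ways, with no marker called. Below 0 were 6 of 7 Kupffer cell, 4 of 4 tested neutrophil, 6 of 6 sinusoidal endothelial and 6 of 6 stellate cell markers. The count was 5 of 7 for T and NK cell markers and 2 of 4 for B cell markers. Cholangiocyte and hepatocyte markers had 1 of 4 and 0 of 6 below 0, where 48.4% of all genes were. Per 100 CPM of pan-macrophage markers, the ratio of the homozygous to the wildtype mean ran from 0.950 (Tnf) to 1.24 (Tlr4), and 7 of the 10 members were above 1. The part of macrophage number in the lower member values was not tested. The ranges of the ratios within a role overlapped in all 4 pairs. Tlr2 over Tlr4 averaged 1.97 ± 0.90 in homozygous and 2.10 ± 0.41 in wildtype CDAHFD livers, and Tnfaip3 over Nfkbia ran from -4.50 to -2.80 in homozygous and from -3.86 to -2.64 in wildtype CDAHFD livers. The 4 exact permutation p-values ran from 0.655 to 0.990, which does not show that the ratios were the same.

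Of the 91 other pathway genes, edgeR called none between homozygous knockout and wildtype CDAHFD livers, with 20 at an unadjusted p under 0.05, of which 18 were lower, where 6.07% of all genes were. Limma voom called none, and DESeq2 called 3 lower: Tlr7, Cd83 and Vcam1. The share of all genes that DESeq2 called was not counted, so these 3 cannot be set beside it. Tlr7 averaged 2.11 ± 0.538 CPM in homozygous livers and 3.63 ± 1.18 CPM in wildtype livers, a log2 difference of -0.79 ± 0.19 (edgeR adjusted p = 0.165, DESeq2 adjusted p = 0.0348). Vcam1 averaged 24.3 ± 6.02 CPM in homozygous livers and 36.8 ± 7.89 CPM in wildtype livers, a difference of -0.60 ± 0.15 (edgeR adjusted p = 0.172, DESeq2 adjusted p = 0.0466). Cd83 was at -0.67 ± 0.17 (edgeR adjusted p = 0.180, DESeq2 adjusted p = 0.0323). Nlrp3 (-0.70), Tnfrsf11a (-0.53), Nfkbid (-0.65) and Socs1 (-0.79) had the lowest p of their lists and were not called by either tool. Chuk, one of the genes that fell under CDAHFD, was at 0.14 ± 0.07 (edgeR adjusted p = 0.482). By list, the medians ran from -0.38 for the other target genes, with 14 of 15 below 0, to 0.09 for the adaptors, kinases and ubiquitin ligases, with 3 of 17 below 0.

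Heterozygous knockout livers were set against the same wildtype CDAHFD libraries, so the homozygous and heterozygous differences share their controls. No member was called, nor any of the 17104 genes (0.0%), and no member had an unadjusted p under 0.05, against 8.44% of all genes. DESeq2 and limma voom called no member either. The log2 differences ran from -0.31 ± 0.23 (Relb) to 0.23 ± 0.22 (Tnfaip3), with 8 of 10 below 0, where 51.3% of all genes were, and a median of -0.16. Tnf lay between 0.769 and 4.32 CPM in heterozygous livers (median 1.66 CPM), against 0.762 to 4.79 CPM (median 1.80 CPM) in wildtype livers, nearly the same range. Tlr2 lay between 5.65 and 15.1 CPM in heterozygous livers (median 7.14 CPM), against 4.74 to 13.5 CPM (median 7.89 CPM) in wildtype livers, a difference of 0.02 ± 0.27. By series, 9 of 10 ratios to wildtype were below 1 among the 9 libraries, and 9 of 10 were above 1 among the 17.

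Between homozygous and heterozygous knockout livers, the largest fitted difference of the 10 was that of Tnfaip3. It lay between 2.64 and 10.2 CPM in homozygous livers (median 5.38 CPM), against 6.48 to 11.3 CPM (median 7.92 CPM) in heterozygous livers, and 7 of 8 homozygous livers lay below every heterozygous liver. The log2 difference was -0.56 ± 0.20, with an edgeR unadjusted p of 0.00999 and an adjusted p of 0.546. The ratio of the means was 0.686 among the 9 libraries and 0.671 among the 17 libraries of the number series. It was the only member of the 10 with an unadjusted p under 0.05 here, against 7.13% of all genes. All 10 members were below 0, from -0.56 to -0.06 (Relb), where 50.3% of all genes were, and none was called (0.00585% of all genes were), nor by DESeq2 or limma voom. Summed pan-macrophage markers ranged from 139 to 283 CPM in homozygous livers and from 212 to 293 CPM in heterozygous livers. Per 100 CPM of those markers the Tnfaip3 ratio was 0.941.

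**Figure D4:**
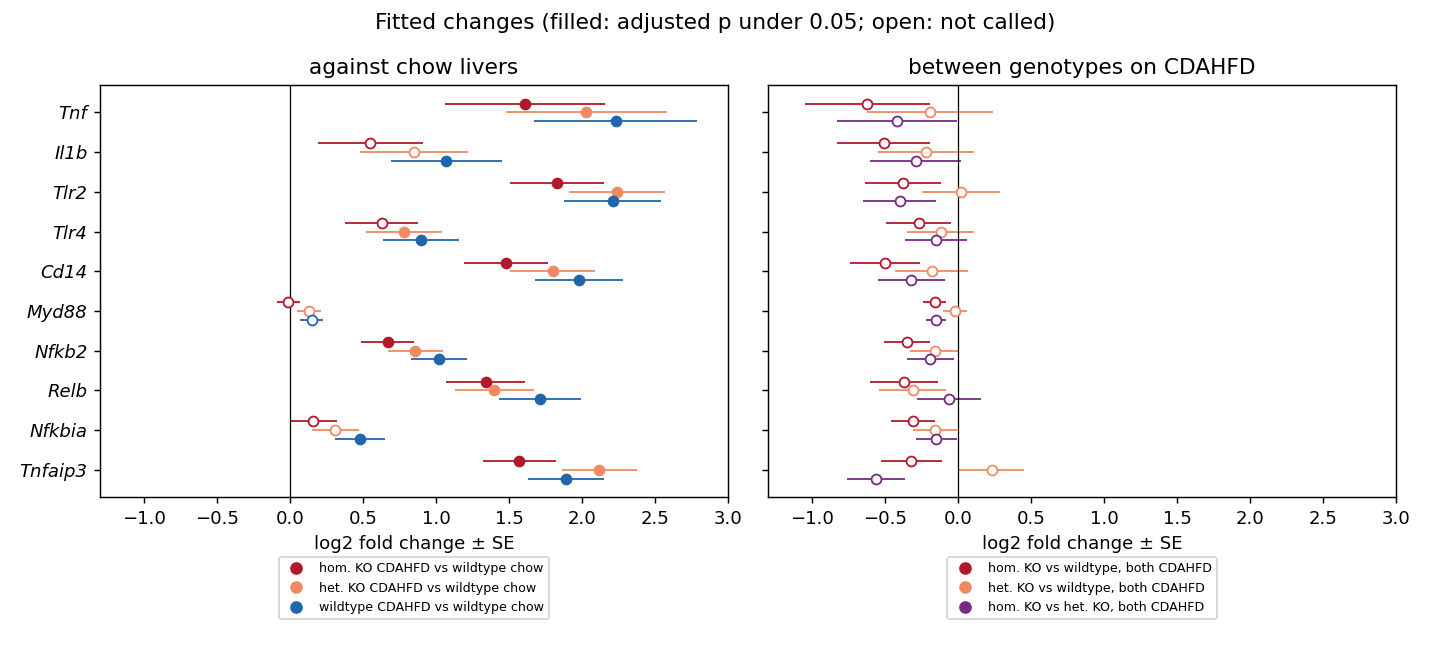
Fitted log2 fold changes of the 10 genes (x axis) are shown with SE as horizontal bars, against chow livers on the left and between genotypes on CDAHFD on the right. Filled points have an edgeR adjusted p under 0.05. The values against chow run from -0.01 (homozygous, Myd88) to 2.24 (heterozygous, Tlr2), and no point on the right is filled.

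Both knockout groups on CDAHFD were also set against the chow livers, which are wildtype, so genotype and diet cannot be told apart there and the chow libraries are shared with the comparison above. In homozygous livers 6 members were called higher (Tnf, Tlr2, Cd14, Nfkb2, Relb and Tnfaip3), against 12.3% of all genes, with a median of 1.01. The ranges did not overlap for 3 of them (Tlr2, Cd14 and Tnfaip3), against 4.61% of all genes. In heterozygous livers those 6 and Tlr4 were called higher, against 19.3% of all genes, with a median of 1.13. There 5 did not overlap (Tlr2, Cd14, Nfkb2, Relb and Tnfaip3), against 7.58% of all genes.

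Among the single values, Tlr2 was at 1.83 ± 0.32 in homozygous and 2.24 ± 0.33 in heterozygous livers relative to chow, and Tnfaip3 at 1.57 ± 0.25 in homozygous and 2.12 ± 0.26 in heterozygous livers. Nfkbia, called in wildtype CDAHFD livers, was at 0.16 ± 0.16 in homozygous livers (edgeR adjusted p = 0.485) and 0.31 ± 0.16 in heterozygous livers (edgeR adjusted p = 0.132). Il1b was at 0.55 ± 0.36 in homozygous livers (edgeR adjusted p = 0.282) and 0.85 ± 0.37 in heterozygous livers (edgeR adjusted p = 0.0732), and without chow sample 1 the heterozygous value was 1.19 and called (edgeR adjusted p = 0.0215). The homozygous Tnf rise of 1.61 ± 0.55 (edgeR adjusted p = 0.0338) was lost without chow sample 1, 2 or 3 or homozygous sample 7 or 8, with values of 1.36 to 1.55 and edgeR adjusted p of 0.0527 to 0.0895. Tlr4 in heterozygous livers, at 0.78 ± 0.26 (edgeR adjusted p = 0.0183), was lost without chow sample 2 or 5 (0.68 and 0.72, edgeR adjusted p = 0.0590 and 0.0543). In homozygous livers Tlr4 was at 0.63 ± 0.25 (edgeR adjusted p = 0.0684) and was called without homozygous sample 5 (0.72, edgeR adjusted p = 0.0387).

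Over the 4 groups, 7 members had the same order of means: wildtype CDAHFD highest, then heterozygous, then homozygous, then chow. Tlr2 and Tnfaip3 were highest in heterozygous livers, and for Myd88 the homozygous mean was the lowest. No pair of the 3 CDAHFD groups was called for any member, so the order among them is within the spread. Compared per length of exon, Nfkbia was the most abundant in wildtype CDAHFD livers, at 43.2 CPM per kb, then Cd14 at 8.71, Myd88 at 8.05 and Nfkb2 at 5.83 CPM per kb. Tlr2 followed at 2.85, Relb at 2.66, Il1b at 2.01 and Tnf at 1.30 CPM per kb, with Tnfaip3 at 0.964 and Tlr4 at 0.353 CPM per kb the lowest. In chow livers Cd14 stood at 2.21 CPM per kb, below Myd88 at 7.27 and Nfkb2 at 2.88 CPM per kb.

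Some of the 21 CDAHFD livers were high or low in most members at once. Wildtype CDAHFD sample 2 lay above the median of the 21 for all 10 members and among the 3 highest for 8 of them. Wildtype CDAHFD sample 3, heterozygous sample 4 and homozygous sample 8 lay above the median for 9 of 10. At the other end, homozygous sample 3 was the lowest of the 21 for 7 members (Tnf, Il1b, Tlr2, Cd14, Nfkb2, Relb and Tnfaip3) and above the median for 2, while homozygous sample 5 was above the median for 0 members and homozygous sample 6 for 1. The summed pan-macrophage markers stood at 191 CPM in homozygous sample 8, 142 CPM in homozygous sample 3 and 149 CPM in homozygous sample 5, at 293 CPM in heterozygous sample 4, and at 280 and 414 CPM in wildtype CDAHFD samples 2 and 3. Without both of those wildtype samples, 6 members were called higher than chow and none was called between homozygous and wildtype livers. Those samples were left out after their values were seen, and the share of all genes called without them was not counted.

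**Figure D5:**
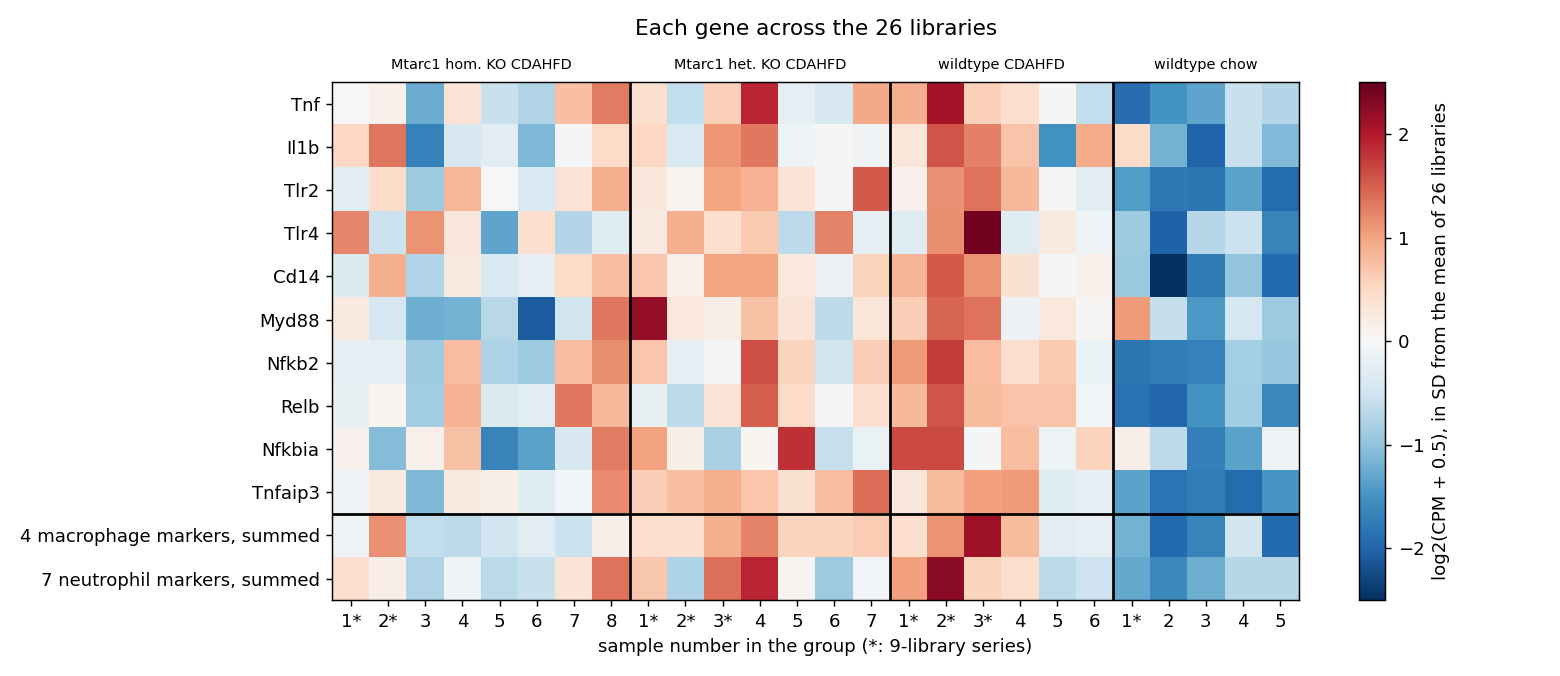
Colour shows the level of each gene (y axis) in each of the 26 libraries (x axis), as log2(CPM + 0.5) in SD from the gene's mean over all libraries, grouped as homozygous, heterozygous, wildtype CDAHFD and wildtype chow, with an asterisk for the 9-library series. The lower rows are summed macrophage and neutrophil markers. Wildtype CDAHFD sample 2 is high in all 10 genes, and homozygous samples 3, 5 and 6 are low in most.

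Over the 21 CDAHFD livers, likeness of pattern was measured as the mean absolute difference of standardised log2(CPM + 0.5), among 13873 genes of at least 1 CPM. For Tlr2 the nearest genes were Haus8 (0.31 SD), Cbr3 (0.37 SD) and Capg (0.39 SD), where the median gene was at 1.14 SD. Those nearest to Cd14 were Rab7b (0.32 SD), Itgam (0.35 SD) and Lilr4b (0.36 SD), of which Itgam encodes the myeloid integrin CD11b. Tnfaip3 had Picalm (0.37 SD), Polr2a (0.41 SD) and Alox5ap (0.43 SD). Nfkb2 had Ly6d (0.29 SD), S100a11 (0.30 SD) and Mvp (0.32 SD). Among the members themselves the nearest to Nfkb2 was Relb (0.34 SD), to Cd14 Tnf (0.45 SD), and to Tlr2 Tnfaip3 (0.45 SD). These distances are over shared libraries and are a description only.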

How the data were processed

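Per the labels' protocols, liver total RNA was made into libraries with an NEB Ultra II kit. The deposited table holds estimated counts per gene, unnormalized and not always whole (54.4% of values above 0 were whole numbers), for 26 libraries and 55642 Ensembl IDs. The submitters' processing notes name cutadapt 3.5, Salmon 1.4.0 and the builds GRCm39 and mm39. No source used here says how transcript values became gene values. Every column was matched to a library by its name (0 unused). Symbols came from GENCODE's GRCm38 gene annotation, matched on the ID (51475 IDs, 92.5%), which was also used for exon lengths and overlaps.

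Rounded counts entered edgeR 4.0.16, run in R 4.3.3 (TMM factors of 0.867 to 1.139, filterByExpr by group, robust quasi-likelihood F tests). All 26 libraries and 4 groups entered one fit of 17104 genes, with Benjamini-Hochberg adjustment over all of them and calls at 0.05. Each SE is the size of the log2 fold change over the root of its F statistic. The procedure was tested on simulated data. No pair of libraries of a group looked like a duplicate (chi-square per degree of freedom of 16.9 to 129.5 over 74 pairs). Depth averaged 24.79 M (SD 2.65). Total counts of this size leave the scarcest values, such as Tnf in chow livers, resting on a few counts. Log2 ratios of 2 genes of one role were compared by two-sided exact permutation tests of the means, 8 in all.

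Alternatives were DESeq2 1.42.0, limma 3.58.1 (voom), RLE and raw library totals as scales, no filter, the number series as a term, each series alone, a replicate block, the 2 compared groups alone, and each library left out in turn. The 10 genes and the pathway and marker lists were chosen with earlier results of these data known. The text names the 10 genes in every comparison, Mtarc1, per list up to 3 called genes of lowest p (or the gene of lowest p where none was called), markers as lists, and the 3 genes nearest in pattern to Tlr2, Cd14, Tnfaip3 and Nfkb2. Others (Ly96, Cd180, Ticam1, Ikbke, Nfkb1, Rela, and Acaa1a and Psd as overlapping genes) were named after their values were seen.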

Additional observations from a re-analysis of the deposited data

Results flagged for a closer look

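A library that stood far from the others of its group, judged by Dixon's test at the 95% level, was found in 3 of the 40 combinations of gene and group, where chance gives about 1 in 20. Relb in heterozygous sample 4 stood at 14.49 CPM, above the other heterozygous livers at 4.96 to 8.78 CPM. Tnfaip3 in homozygous sample 8 stood at 10.16 CPM, above the other homozygous livers at 2.64 to 5.96 CPM. Tnfaip3 in heterozygous sample 7 stood at 11.33 CPM, above the other heterozygous livers at 6.48 to 8.57 CPM. Without heterozygous sample 4 the homozygous minus heterozygous difference of Relb was 0.14 on the log2 scale, beside -0.06 with all libraries, and was called in neither case.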

How the results depend on the processing

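Between genotypes no member was called under any alternative run. The share of all genes called was not counted for the alternative runs, so their counts in this section cannot be set beside such a share. For wildtype CDAHFD against chow, 9 members were called, 7 to 9 when a library was left out, and 4 within either number series (9 or 17 libraries), where fewer samples entered; Il1b and Nfkbia were the least stable. With the number series as a term 7 were called, without Il1b (0.91, edgeR adjusted p = 0.0504) and Nfkbia (0.46, edgeR adjusted p = 0.0568). Against chow, the members called in the 9-library series alone were 0 for homozygous livers (6 with all libraries, 5 to 7 leaving out a library) and 0 for heterozygous livers (7 with all libraries, 6 to 8). The other pathway genes called numbered 10 (9-library series) and 28 (17-library series) for CDAHFD against chow, beside 52 (43 to 53 leaving out a library). They numbered 3 by DESeq2 for homozygous against wildtype, beside 0. The share of all genes called by DESeq2 was not counted, and the cause was not tested. In the 9-library series there were 0 for homozygous livers against chow, beside 39 (32 to 41), and 2 for heterozygous livers, beside 54 (46 to 52).

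Mtarc1 in homozygous against heterozygous livers was -1.75 (edgeR adjusted p = 0.279) in the 9-library series alone, beside -1.72 (-1.79 to -1.65 leaving out a library). In wildtype CDAHFD against chow it was -0.38, and -0.39 and called with only these groups fitted (-0.45 to -0.31; called without wildtype CDAHFD sample 4, at -0.45). It ranged from -2.34 to -2.20 for homozygous and from -0.62 to -0.48 for heterozygous against wildtype livers.

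Signs that turned were all of uncalled values. Homozygous against wildtype: in the 17-library series Tnf 0.19, Tlr2 0.01 and Tlr4 0.02; without both wildtype CDAHFD samples 2 and 3, Tlr2 0.01 and Tlr4 0.11. Heterozygous against wildtype: in the 17-library series Tnf 0.81, Il1b 0.07, Tlr4 0.19, Cd14 0.27, Myd88 0.02, Nfkb2 0.16 and Relb 0.14; without those samples Tnf 0.30, Il1b 0.09, Tlr4 0.25, Cd14 0.15 and Myd88 0.04; Tlr2 -0.41 (9-library series), -0.03 (raw totals) and -0.07 (replicate block); leaving out a library, Tnf -0.55 to 0.21, Tlr2 -0.16 to 0.20, Tlr4 -0.20 to 0.11 and Myd88 -0.06 to 0.01. Homozygous against heterozygous: Il1b 0.33 and Relb 0.04 (9-library series), and Relb -0.20 to 0.14 leaving out a library. Against chow, homozygous Myd88 was 0.18 (raw totals), 0.01 (no filter), 0.03 (17-library series) and -0.06 to 0.05 leaving out a library, Nfkbia -0.19 (9-library series), and heterozygous Myd88 -0.02 (9-library series).

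For CDAHFD against chow, the log2 ratios of Tlr2/Tlr4, Relb/Nfkb2 and Tnfaip3/Nfkbia kept an adjusted p under 0.05 without any single library. The same held without both samples. No chow liver overlapped a CDAHFD liver in these pairs, so each such run had to give its smallest possible exact permutation p. Those runs therefore cannot show whether the result is stable, and the pairs were chosen after the values were seen. Within the 17-library series the exact permutation p was again the smallest possible (0.0286), and the adjusted p was not under 0.05. The 9-library series has 1 chow library, so only its differences are given: 1.21, 0.75 and 1.44 in the same order. For homozygous against wildtype, Tnf/Il1b was 0.34 (17-library series) and -0.42 to 0.10 leaving out a library, Tlr2/Tlr4 -0.26 to 0.08, Relb/Nfkb2 -0.11 to 0.00, and Tnfaip3/Nfkbia 0.00 (9-library series), 0.06 (17-library series), 0.18 (without both samples) and -0.10 to 0.16.

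Deviations from group means of libraries with equal sample numbers correlated at -0.44 to 0.387 (median 0.109) over 34 pairs, 17 of them above 0.1. Libraries of unlike number were not compared, so these values cannot decide whether equal numbers pair the samples. With the replicate block 9, 0 and 0 members were called for CDAHFD against chow, homozygous and heterozygous against wildtype, and 5 for homozygous against chow, where Tnf was at 1.35 (edgeR adjusted p = 0.0544).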
